A study of Mus musculus with 8 samples.

Results

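CEBPA binding was compared gene by gene between a pair of clonal mouse leukaemia lines, one without and one with wild-type PU.1 activity. The deposited CEBPA peak lists held 26119 peaks in the empty-vector line and 20583 in the PuER line, which together made 46702 of the 67673 peaks in the 4 lists examined. A peak was counted at a protein-coding gene when its centre lay in the gene body or within 20 kb of it, so a peak could count at several genes. Of 21951 protein-coding genes, 12867 had at least 1 CEBPA peak in either list. A gene was said to gain or lose when its number of listed peaks differed by at least 2 between the lists.

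Both lines derive from X18.1.1, a radiation-induced murine acute myeloid leukaemia (AML) line in which one Pu.1 allele is deleted and the remaining allele is mutated. The line called EV carried the empty MSCV retroviral vector and had mutant PU.1 alone. The line called PuER also expressed wild-type PU.1 fused to part of the oestrogen receptor, which becomes active in the presence of 4-hydroxytamoxifen (OHT). Both were grown in 100 nM OHT for 2 h before chromatin immunoprecipitation and sequencing (ChIP-Seq), and each was obtained by limiting dilution, so that each group stands for 1 clone. There was 1 library per antibody and line. No test between the lines was therefore possible, clone and transgene cannot be told apart, and the 95% intervals given are exact (Clopper-Pearson) intervals that cover counting error only. The lists held coordinates without heights or read counts, the sequencing depth is unknown, and absence from a list is not evidence of no binding. The cell type of the lines could not be checked from peak lists. The H3K27Ac and IgG libraries were not analysed here.

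CEBPA is a basic leucine zipper transcription factor that drives commitment to the granulocyte and monocyte lineages and is mutated in a subset of human AML. It binds as a dimer to palindromic sites that resemble TTGCNNAA, where N is any base. PU.1, encoded by Spi1, is an ETS family factor that binds sites with a GGAA core and is needed for macrophage development. Both factors occupy many enhancers in myeloid cells, and enhancers with several nearby binding sites are common at genes that define a cell type.

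The sequences below show CEBPA peaks listed in one line only at genes with the largest changes. Each is the central 80 bp of a peak on the forward strand of the RefSeq GRCm38 (mm10) genome, and capitals mark exact matches to the CEBP site TTGCNNAA on either strand. The first group was listed only in PuER, at Ctsc, Tg, Grm5 and Adgrl3, and the second only in EV, at Calcrl, Lypd6b and Atp8b4. All lie in introns except those at Ctsc, which lie within 20 kb beyond the gene's 3′ end. The Grm5 peak, the second Tg peak and the Adgrl3 peak overlapped a PU.1 peak of PuER, and none of the EV-only examples overlapped a PU.1 peak of EV.
Ctsc, chr7:88319320-88319399: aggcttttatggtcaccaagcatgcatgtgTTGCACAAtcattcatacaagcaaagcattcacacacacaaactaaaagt
Ctsc, chr7:88329710-88329789: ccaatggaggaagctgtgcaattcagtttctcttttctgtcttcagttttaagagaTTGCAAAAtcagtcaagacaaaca
Tg, chr15:66750185-66750264: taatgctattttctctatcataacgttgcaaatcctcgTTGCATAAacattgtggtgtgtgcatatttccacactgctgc
Tg, chr15:66816723-66816802: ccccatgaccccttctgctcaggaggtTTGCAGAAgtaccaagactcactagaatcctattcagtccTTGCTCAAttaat
Grm5, chr7:88054397-88054476: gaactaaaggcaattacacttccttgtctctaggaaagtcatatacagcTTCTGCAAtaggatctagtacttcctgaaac
Adgrl3, chr5:81061199-81061278: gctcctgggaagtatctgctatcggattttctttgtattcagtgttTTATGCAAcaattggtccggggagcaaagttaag
Calcrl, chr2:84336618-84336697: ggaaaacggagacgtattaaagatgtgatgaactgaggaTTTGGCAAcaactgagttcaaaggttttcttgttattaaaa
Lypd6b, chr2:49805332-49805411: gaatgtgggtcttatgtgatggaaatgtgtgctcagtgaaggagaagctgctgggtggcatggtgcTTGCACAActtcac
Lypd6b, chr2:49905830-49905909: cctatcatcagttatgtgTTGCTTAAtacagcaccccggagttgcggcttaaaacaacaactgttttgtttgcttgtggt
Lypd6b, chr2:49919457-49919536: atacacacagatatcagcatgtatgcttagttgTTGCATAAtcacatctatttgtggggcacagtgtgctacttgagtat
Atp8b4, chr2:126339326-126339405: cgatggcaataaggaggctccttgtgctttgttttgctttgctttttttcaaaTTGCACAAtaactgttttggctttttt

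CEBPA peaks were widespread over genes in both lines. At least 1 peak was in reach of 12405 genes in EV (56.5% of all protein-coding genes) and of 11251 in PuER (51.3%). A gene with a peak had a mean of 2.66 peaks in EV and 2.32 in PuER, with a median of 2 in each. In EV, 4572 genes had a single peak, 3683 had 3 to 5 and 178 had 11 or more. In PuER, the corresponding numbers were 4839, 2852 and 85. Most genes with a peak had one in both lists (10789), whereas 1616 had peaks in EV only and 462 in PuER only. Of these, 1297 and 414, respectively, had a single peak. A promoter peak, with its centre within 1000 bp of a transcription start, was listed at 4265 genes in EV and 3520 in PuER, and 3194 of these genes had one in both.

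Losses of listed peaks exceeded gains. Among all protein-coding genes, 5868 had fewer peaks in PuER (26.7%), 1475 had more (6.72%) and 5524 had the same number above 0. At least 2 peaks were gained by 184 genes (0.838%) and lost by 1831 (8.34%), and at least 3 by 29 and 574. The threshold cut through a steep distribution, since 1291 genes gained exactly 1 peak and 155 exactly 2, and 4037 lost exactly 1 and 1257 exactly 2. The PuER list was shorter by a factor of 0.788. When the EV number of each gene was multiplied by that factor before subtraction, 289 genes gained and 249 lost, and the excess of losing genes was no longer present. The directions below are therefore those of the lists as deposited.

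Genes that changed mostly did so through peaks of a single list. Of the 184 gaining genes, 163 had no EV-only peak, and of the 1831 losing genes, 1645 had no PuER-only peak. There were 48 gaining genes without any EV peak and 319 losing genes without any PuER peak. Peaks of both kinds lay at 1131 genes. A PuER-only peak was in reach of 2492 genes (11.4%) and an EV-only peak of 6613 (30.1%). Gaining and losing genes had a similar median length, 41.3 and 41.2 kb, against 23.3 kb for all genes with a peak.

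**Figure D1:**
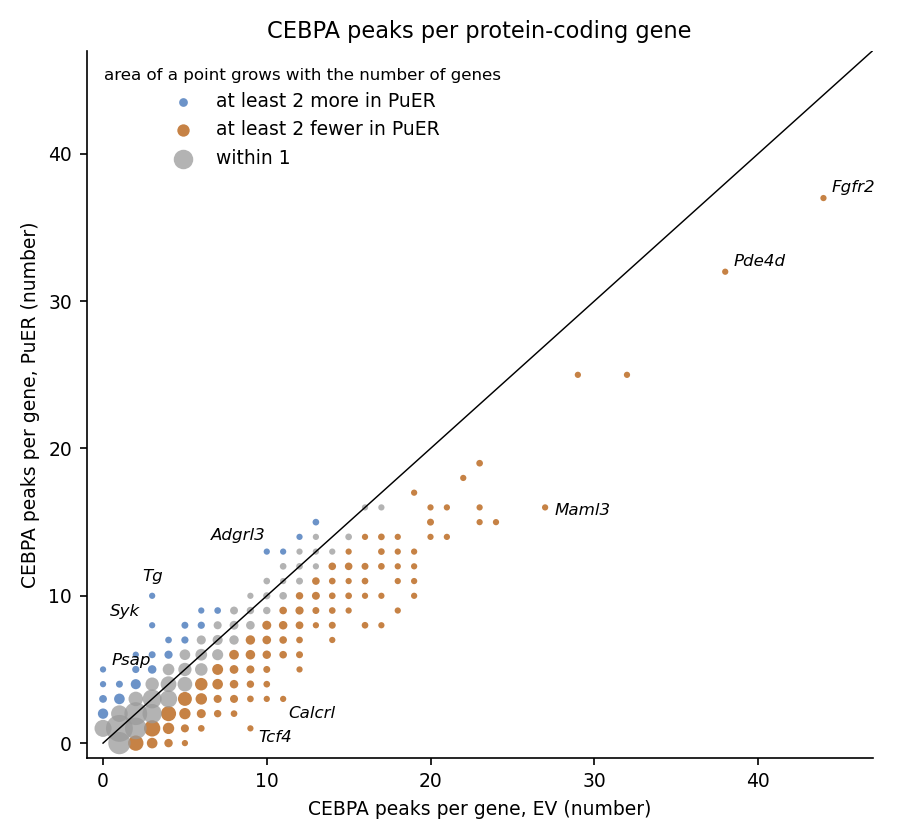
CEBPA peaks per protein-coding gene in EV (horizontal axis) and PuER (vertical axis), as numbers of peaks. Each point is a pair of values, its area grows with the number of genes that share it, the line marks equal numbers, and Gm20388 (134 and 103 peaks) lies outside the axes. Most points with more than 15 EV peaks lie under the line, and the gaining genes such as Tg and Psap had few EV peaks.

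The largest gain was at Tg, which encodes thyroglobulin, the precursor of thyroid hormone. This gene (ENSMUSG00000053469.14, chr15:66670753-66850721, forward strand) had 3 peaks in EV and 10 in PuER. All 3 EV peaks were kept, and the 7 added peaks lay in the gene body, 5 of them at PU.1 peaks of PuER. Sla, which encodes an adaptor that limits antigen receptor signalling, lies within Tg on the opposite strand and had 3 of the added peaks in reach, going from 3 to 6. One of the added Tg peaks, 142 kb from the 5′ end of Tg, was at an annotated promoter. The 1-Mb window that holds both genes (chromosome 15, 66 to 67 Mb) had the largest rise of all windows, from 19 to 30 peaks.

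Psap encodes prosaposin, the precursor of the saposins that assist lysosomal breakdown of sphingolipids. No CEBPA peak was listed within 20 kb of it in EV, and 5 were listed in PuER. The gene (ENSMUSG00000004207.14, chr10:60277627-60302597, forward strand) had 4 of these peaks upstream, at 16.9, 14.1, 8.83 and 3.97 kb from its 5′ end, and the fifth in an intron. All 4 upstream peaks overlapped PU.1 peaks of PuER and none of the 5 held a CEBP site in its central 80 bp. The intronic peak was also in reach of Cdh23, a cadherin gene that went from 9 to 6 peaks.

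Syk encodes a tyrosine kinase that acts below Fc and integrin receptors in myeloid cells. It went from 3 to 8 peaks (chr13:52583173-52648792, forward strand), with every EV peak kept. Of the 5 added peaks, 2 lay upstream and 3 in introns, 2 overlapped a PU.1 peak of PuER and 1 held a CEBP site. Ctsc encodes cathepsin C, the lysosomal protease that activates granule serine proteases, and went from 2 to 6 peaks. Its kept peaks were at the promoter and just beyond the 3′ end, and 3 of its 4 added peaks held a CEBP site, 2 of which are printed above. Only 1 of the added Ctsc peaks overlapped a PU.1 peak of PuER, at 6.38 kb upstream.

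The other genes among the 12 with the largest gains had varied roles. Nod2, a sensor of bacterial cell wall fragments, went from 2 to 5 peaks and shared 2 of its 4 added peaks with Snx20, which went from 0 to 2. Siglece, an inhibitory sialic acid receptor of myeloid cells, had no EV peak and 3 in PuER, of which 2 were also counted at Zfp819. Its 3 peaks all lay over 5 kb from the gene and nearest to other genes, so that its net change was 0 in the gene body, within 5 kb and with the nearest gene only. Grm5, a glutamate receptor gene of neurons, went from 0 to 4 peaks, all in introns. The window that holds Ctsc and only the 3′ part of Grm5 (chromosome 7, 88 to 89 Mb) rose from 3 to 11. Wdfy2 went from 4 to 7, Fam129a from 5 to 8 and Rasgrf2, a Ras exchange factor, from 5 to 8. Adgrl3, an adhesion receptor gene, went from 10 to 13, and each of these 4 lost 1 EV peak and added 4. Genes without an EV peak and with 3 in PuER also included Cnnm4, Dph5, Gnb1, Tmem56 and Glcci1, while Tas2r126 had 2. Over the 12 genes with the largest gains, 51 PuER-only peaks were counted, 33 in gene bodies, and 15 held a CEBP site.

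In the lists as deposited, the largest losses were at long genes with many peaks. This order rests on the raw numbers, since with EV numbers multiplied by the ratio of the list sizes the net change was -2.598 at Gm20388 and -5.28 at Maml3, against -6.09 at Tcf4 and -5.67 at Calcrl. Gm20388 went from 134 to 103, but its annotation spans 4.43 Mb and covers many other genes, among them Ankrd11, which went from 17 to 12. Maml3, a co-activator of Notch signalling, went from 27 to 16, and 3 of its 11 EV-only peaks were also in reach of Mgst2, which went from 8 to 4. Ankrd44 went from 24 to 15, Zfp608 from 19 to 10, Jazf1 from 18 to 9 and 2010111I01Rik from 19 to 11. Astn2 went from 23 to 15 and was the only one of the 12, apart from Gm20388, with a PuER-only peak. Lypd6b and Atp8b4 each went from 16 to 8, and 5 of the 8 EV-only Lypd6b peaks held a CEBP site, against 1 at Atp8b4 and 0 at Maml3 and Jazf1. Of the 137 EV-only peaks at these 12 genes, 120 lay in gene bodies and 26 held a CEBP site.

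Calcrl and Tcf4 kept the smallest share of peaks among the genes with the largest losses. Calcrl encodes the receptor for calcitonin gene-related peptide and adrenomedullin (chr2:84330626-84425411, reverse strand) and went from 11 to 3. Its promoter peak and the intron peaks at 55.9 and 66.6 kb were kept, and 5 neighbouring EV-only peaks lay between 28.0 and 43.3 kb from the 5′ end. Tcf4 encodes a basic helix-loop-helix E protein that is required for plasmacytoid dendritic cells and went from 9 to 1. Its kept peak had the same centre in both lists, and the 8 EV-only peaks lay on either side of it. At Atxn1, which went from 17 to 8, 4 EV-only peaks lay between 91.7 and 94.1 kb from the 5′ end, 3 of them at annotated promoters.

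**Figure D2:**
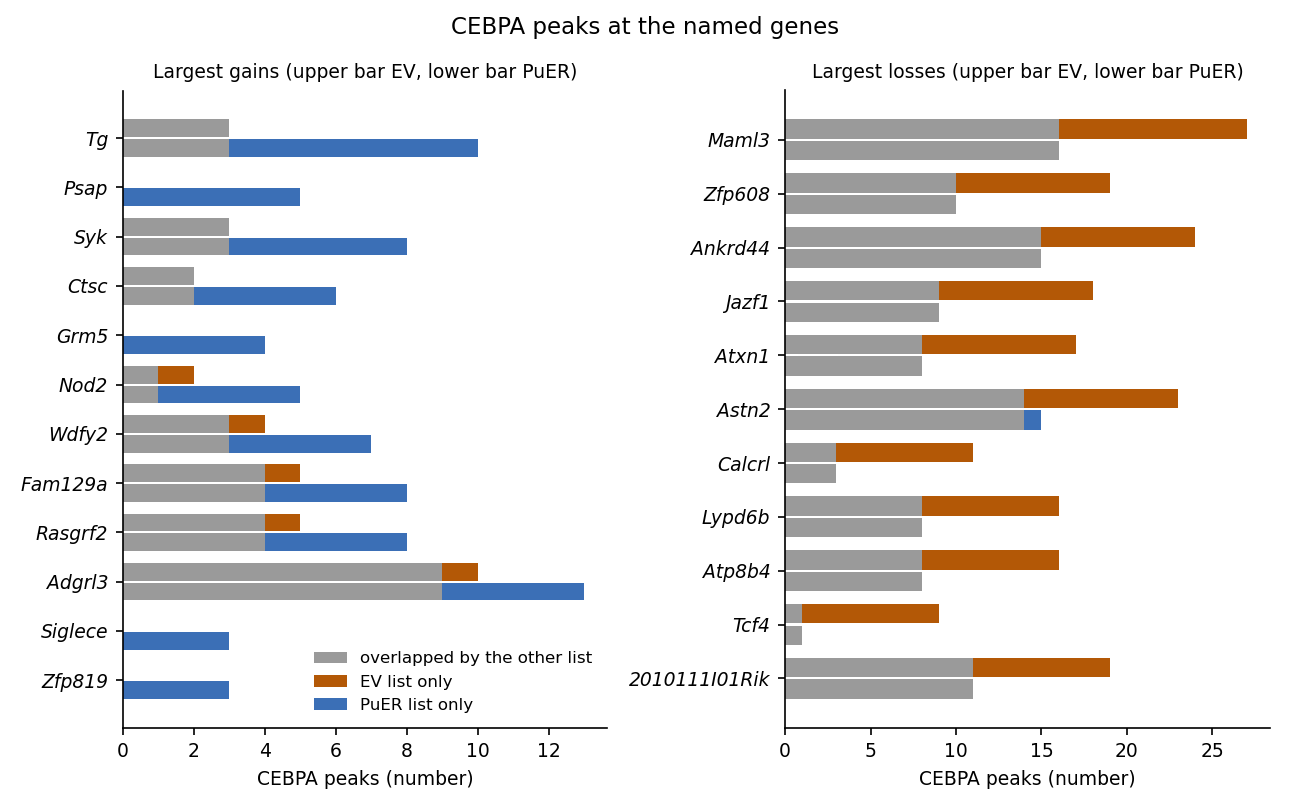
CEBPA peaks (number) at the genes with the largest gains (left) and losses (right), with EV as the upper and PuER as the lower bar of each pair, and Gm20388 left out. Grey marks peaks overlapped by the other list, orange EV-only peaks and blue PuER-only peaks. Tg added 7 peaks to 3 that were kept, and Calcrl kept 3 of 11.

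No PuER peak was listed at 319 losing genes. Celsr1, a cadherin gene of planar cell polarity, had 5 EV peaks, of which 3 held a CEBP site and 1 was at the promoter. Another 12 genes had 4 EV peaks each. The naming rule took Srsf5 and Slc10a1, which shared the same 4 peaks, Grin3b and Tmem259, which also shared theirs, Qprt, Csrp1, Hprt, Optn, Snap47, Gemin5 and Rhbdl3, and left out Mdga1, the longest. Hprt, the purine salvage enzyme gene, lies on chromosome X and had an EV-only peak 45 bp from its 5′ end. No EV-only peak at these genes overlapped a PU.1 peak of EV, except 2 at Snap47.

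**Figure D3:**
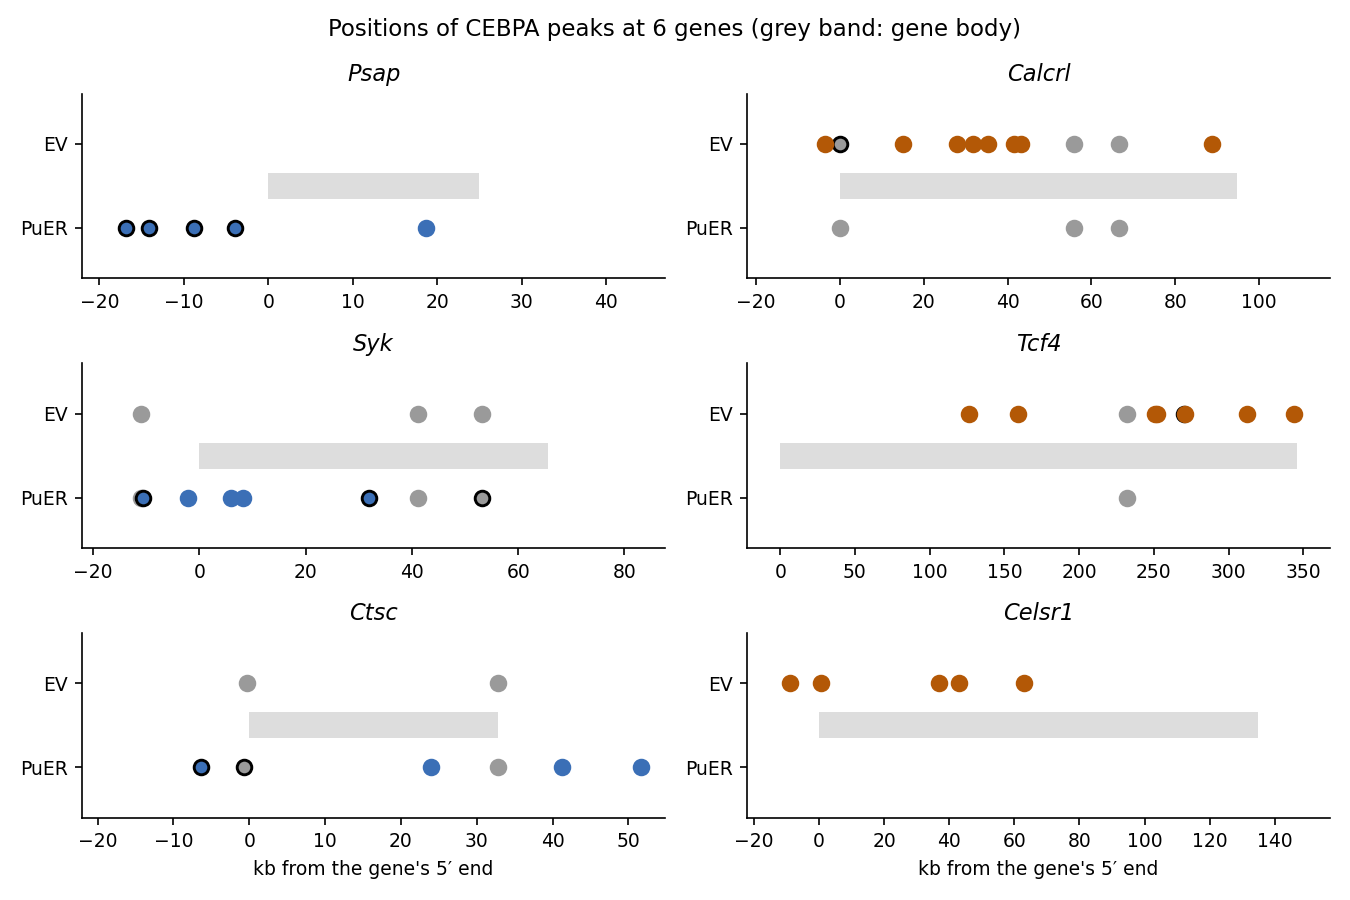
Centres of CEBPA peaks at Psap, Syk, Ctsc, Calcrl, Tcf4 and Celsr1, in kb from the 5′ end of each gene, with the gene body as a grey band. Colours are those of the bars (grey shared, orange EV-only, blue PuER-only) and a black rim marks a peak at a PU.1 peak of the same line. The 4 upstream Psap peaks all have a rim, and all 5 Celsr1 peaks are EV-only.

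The genes with the most CEBPA peaks were long genes in both lists. After Gm20388 came Fgfr2, a fibroblast growth factor receptor gene annotated over 2.96 Mb, with 44 peaks in EV and 37 in PuER. Pde4d, a cAMP phosphodiesterase gene, had 38 and 32, Rad51b had 32 and 25, and Foxp1, a forkhead factor gene, had 29 and 25. Trps1 and Lpp each had 23 and 19. Gm20696 overlaps Foxp1 and had 22 and 18. All of these had fewer peaks in PuER in the lists as deposited. With EV numbers multiplied by the ratio of the list sizes, Fgfr2, Pde4d and Foxp1 would instead count as gaining. In the deposited lists, the share of genes with fewer peaks in PuER rose with the EV number. It went from 28.4% of genes with 1 EV peak to 50.1% with 2 to 3, 69.4% with 4 to 6, 82.6% with 7 to 10 and 92.7% with 11 or more. The share of EV peaks that were kept did not follow this order. It was 68.1% (66.4–69.7%), 70.1% (69.1–71.1%), 70.9% (69.9–71.9%), 69.6% (68.1–71.1%) and 69.9% (68.1–71.7%) in the same classes, and the intervals for 1 and for 4 to 6 EV peaks did not overlap.

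The genes of the factors themselves were also examined. Cebpa went from 5 to 3 peaks, and the promoter peak and peaks 7.78 and 13.9 kb downstream of the 5′ end were kept. Spi1 went from 6 to 5, with the promoter peak kept and a PuER-only peak 10.1 kb upstream. Evi2a, a transmembrane protein gene within an intron of Nf1, went from 2 to 4, and both added peaks overlapped PU.1 peaks of PuER. At Esr1, the gene of oestrogen receptor alpha, there were 8 peaks in EV and 3 in PuER, and none was listed only in PuER.

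Gene groups were described by lists of known genes. Among 28 monocyte and macrophage proteins, 3 gained at least 2 peaks and 5 lost at least 2, beside 0.838% and 8.34% of all genes, and the total was 92 peaks in each line. Itgam, the CD11b integrin chain, went from 1 to 3. Cyba, a subunit of the phagocyte oxidase, went from 3 to 5, and Evi2a was the third gaining member. The paper shows Evi2a as an example of new CEBPA binding in these data, so its gain was known beforehand. The losing members were the Fc receptor gene Fcgr1 (4 to 2), the chemokine receptor gene Cx3cr1 (10 to 8), the endotoxin receptor gene Tlr4 (6 to 4), the oxidase subunit gene Ncf1 (6 to 4) and the inhibitory receptor gene Sirpa (4 to 2). The median change was 0, as over all genes. Of the EV peaks at these genes, 80.4% (70.9–88.0%) were kept, beside 69.7% (69.1–70.3%) of all EV peaks at genes. Such a share was not particular to this group. Among the groups below, 83.3% were kept in the CEBP family, 80% at cell cycle regulators, 76.8% at cytokine receptors and 75% at granule proteins. Lower shares were 63.6% at erythroid and megakaryocyte proteins and 52.6% at B and T cell proteins. The intervals of all these groups overlapped that of the monocyte and macrophage group. All 28 members had a PU.1 peak listed only in PuER within reach, beside 36.7% of all genes and 53.3% of genes with a CEBPA peak in either list. High shares were not particular to this group. Among the groups below, such a peak was near 17 of 20 cytokine receptors, 16 of 20 granule proteins and 15 of 19 signalling inhibitors. It was near 7 of 20 B and T cell proteins. The paper shows a new PU.1 peak at Cd14, so that member was known beforehand. A PuER-only CEBPA peak was at 15 of the 28 monocyte and macrophage members, beside 11.4% of all genes and 2492 of the 12867 genes with a CEBPA peak. Of the 28 members, 25 had an EV peak, so genes with a peak are the closer background. Of those 12867 genes, 184 gained at least 2 peaks and 1831 lost at least 2. With EV numbers multiplied by the ratio of the list sizes, 4 members gained and none lost. Csf1r, the macrophage colony-stimulating factor receptor gene, went from 0 to 1, while Clec4d had 7 and 8 peaks and Fcgr2b had 6 in each.

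The counts of the other groups stand beside the same shares of all genes, 0.838% gaining and 8.34% losing, and beside a PuER to EV ratio of 0.787 for all peaks at genes. Genes without an EV peak cannot lose. An EV peak was at 90% of the granule and 85% of the receptor members below, beside 56.5% of all genes. The closer background is the 12867 genes with a peak in either list, of which 184 gained and 1831 lost. The 20 granule and antimicrobial proteins, which are typical of granulocytes, had no gaining and 3 losing members, with 60 peaks in EV and 50 in PuER. Srgn, the proteoglycan of granules, went from 12 to 8, Ms4a3 from 4 to 1 and S100a9, a calprotectin subunit, from 7 to 5. Scaled by the ratio of the list sizes, none gained and 1 lost. Elane and Prtn3, neutrophil protease genes, had 4 peaks in each line, and Mpo had 1 in each. Mmp8, a collagenase gene, had 6 in each. Among 20 receptors for myeloid growth factors and cytokines, none gained and the tumour necrosis factor receptor genes Tnfrsf1a (6 to 3) and Tnfrsf1b (10 to 8) lost, while the sum was 56 and 50. Scaled in the same way, 1 receptor gained and none lost. Il17ra went from 6 to 7 and Ifngr1 had 5 in each. In the CEBP family of 7 genes, Cebpa was the single losing member and the sum was 24 and 21, whereas after scaling 1 member gained and none lost. Cebpg went from 6 to 5 and Ddit3 from 5 to 6, while Cebpb had 3 peaks and Cebpe 2 in each line.

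Transcription factor genes had ratios of PuER to EV peaks of 0.844 (myeloid factors) and 0.818 (stem and progenitor factors). Of 26 factors of myeloid cells, Fosb gained (2 to 4), and Zeb2 (12 to 7), Gfi1 (8 to 5) and Junb (4 to 2) lost, with sums of 90 and 76. Gfi1 encodes a repressor needed for neutrophil development. Trib1 went from 8 to 9 and Atf3 from 9 to 8. Of 22 factors of stem and progenitor cells, Myc gained (1 to 3), and Runx1 (20 to 15), Erg (13 to 9), Fli1 (11 to 7) and Etv6 (19 to 17) lost, with sums of 88 and 72. Runx1 encodes a subunit of the core-binding factor, and the other losing genes encode ETS factors. No peak was listed in either line at Hoxa9, Hoxa10 or Meis1. For both groups the median change was 0, and 76.7% (66.6–84.9%) and 73.9% (63.4–82.7%) of EV peaks were kept, beside 69.7% over all genes. After scaling, 2 myeloid factors gained and 1 lost. Of the stem and progenitor factors, 2 gained after scaling and none lost. These were Myc and Etv6, so the direction at Etv6 depended on the scaling.

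The 19 signalling inhibitors and phosphatases were the one group with a median change below 0, at -1. None gained, and Inpp5d, which encodes the lipid phosphatase SHIP1, went from 7 to 3. Socs3, a feedback inhibitor of cytokine signalling, went from 7 to 5, and the inhibitors of receptor tyrosine kinase signalling Spry2 (5 to 3) and Spred2 (4 to 2) also lost. The sum was 66 peaks in EV and 52 in PuER, a ratio of 0.788, and 69.7% (57.1–80.4%) of EV peaks were kept, beside 69.7% over all genes. Inpp5d had 7 PU.1 peaks of PuER alone within reach and no PuER-only CEBPA peak, and Cish had 5 CEBPA peaks in each line. With EV numbers multiplied by the ratio of the list sizes, 1 member of this group lost and none gained.

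Genes of other cell types were examined in the same way. An EV peak was in reach of 50% of the erythroid and megakaryocyte, 55% of the B and T cell and 61.1% of the liver and adipose members, beside 56.5% of all genes. The 18 erythroid and megakaryocyte proteins had 11 peaks in EV and 8 in PuER. Klf1 had 2 in each line and Tfrc went from 1 to 2. Over 20 B and T cell proteins there were 19 and 13, and Cd79a, Cd22 and Lck each went from 3 to 1, a loss that no member showed after scaling, while Vpreb1 had 4 in each and Pax5, Ebf1 and Rag1 had none in either line. The 18 liver and adipose targets of CEBPA had 34 and 31, and Pparg, the nuclear receptor of fat cell differentiation, went from 12 to 6 and was the single losing member, also after scaling, while Retn had 7 and Cfd 4 in each line. Of 20 cell cycle regulators, Cdk6 alone lost (18 to 13) and none gained, with sums of 60 and 54, whereas after scaling 1 gained and none lost. Ccnd3 went from 10 to 9 and Rb1 from 5 to 6.

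PU.1 peaks come from separate libraries that the gene counts did not use. A PU.1 peak listed only in PuER was within reach of 157 of 184 gaining genes (85.3%, 79.4–90.1%), of 1155 of 1831 losing genes (63.1%, 60.8–65.3%) and of 5543 of the 10852 other genes with a CEBPA peak (51.1%, 50.1–52.0%). In genes under 50 kb, the shares were 79.2%, 52.4% and 46.9%. They were 95.5%, 70.4% and 62.7% in genes of 50 to 150 kb, and 89.7%, 84.8% and 66.4% in longer genes. The intervals of gaining and losing genes did not overlap in the first and second of these length classes, whereas they did in the last. These intervals treat genes as independent and may be too narrow, since 37.2% of assigned EV CEBPA peaks were in reach of 2 or more genes. A PuER-only CEBPA peak lay directly at a PU.1 peak of PuER at 133 of the gaining genes (72.3%, 65.2–78.6%). The rule for gaining selects genes with several PuER-only peaks, which raises this share, and no value for other genes stands beside it.

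The peaks behind the changes differed in their overlap with PU.1. At gaining genes, 157 of 338 PuER-only CEBPA peaks (46.4%, 41.0–51.9%) overlapped a PU.1 peak of PuER, as did 27.5% (22.4–32.9%) of the 295 shared peaks at these genes. Among PuER-only peaks at genes that neither gained nor lost, the share was 39.1% (36.5–41.8%). At losing genes, 5.86% (5.12–6.66%) of 3706 EV-only peaks and 20.2% (19.1–21.5%) of 4378 shared peaks did so. Overlap of the EV-only peaks with PU.1 peaks of EV was 6.56% (5.78–7.40%), against 15.5% (14.4–16.6%) of the shared peaks. EV-only peaks thus had fewer PU.1 peaks than shared peaks at the same genes in either line. PuER-only peaks had more than shared peaks in PuER, while their overlap with PU.1 peaks of EV was 7.40% (4.84–10.7%) against 10.8% (7.54–15.0%).

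CEBP sites were less frequent in peaks of a single list than in shared peaks. The central 80 bp held a site in 25.4% (20.9–30.4%) of PuER-only peaks at gaining genes and 39.3% (33.7–45.2%) of the shared peaks there. At losing genes, it was present in 26.4% (25.03–27.90%) of EV-only peaks and 37.7% (36.2–39.1%) of shared peaks. Windows of the same length 2000 bp to either side held a site in 2.88% to 4.44% of cases in these classes. An ETS site (GGAAGT on either strand) was present in 15.4% (11.7–19.7%) of PuER-only peaks at gaining genes, against 6.21% of flanking windows, and in 8.82% (7.93–9.78%) of EV-only peaks at losing genes, against 4.49%. Shared peaks held one in 10.5% (7.25–14.6%) of cases at gaining genes and 10.0% (9.13–10.9%) at losing genes. For PuER-only peaks at genes that neither gained nor lost, the share was 13.8% (12.1–15.8%). Within the PuER-only peaks at gaining genes, ETS sites were found in 26.1% (19.4–33.7%) of the 157 at PU.1 peaks and 6.08% (3.07–10.6%) of the 181 others. CEBP sites were found in 20.4% (14.4–27.5%) and 29.8% (23.3–37.1%), with overlapping intervals. Median GC content was 45.1% to 46.3% in the 4 classes.

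**Figure D4:**
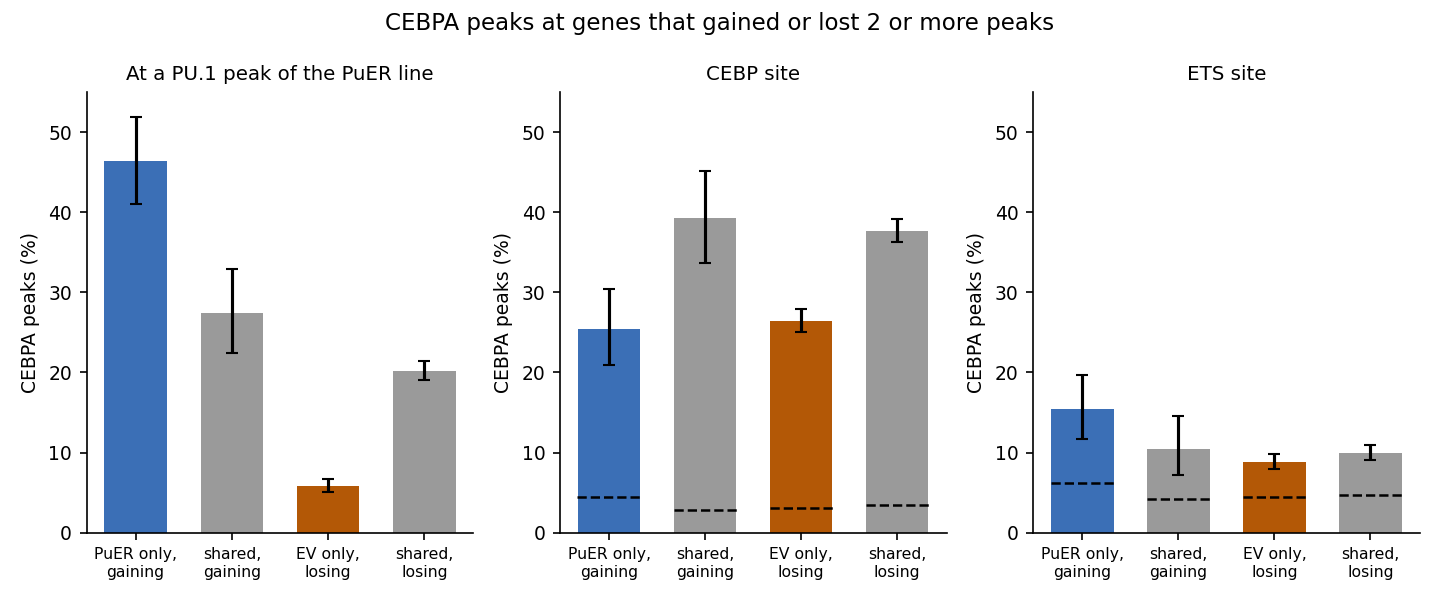
Share of CEBPA peaks (%) that overlapped a PU.1 peak of PuER, or held a CEBP or ETS site in the central 80 bp, for PuER-only and shared peaks at gaining genes and EV-only and shared peaks at losing genes. Error bars are exact 95% intervals for counting error and dashed lines the share in flanking windows. PuER-only peaks had the tallest PU.1 bar (46.4%) and EV-only peaks the shortest (5.86%).

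Changed peaks were also placed relative to gene parts. Of the PuER-only peaks at gaining genes, 17.8% (13.8–22.3%) were at promoters, 51.5% (46.0–56.9%) in introns and 26.0% (21.4–31.1%) outside genes but within 20 kb. Of the EV-only peaks at losing genes, 17.6% (16.4–18.9%) were at promoters, 56.9% (55.3–58.5%) in introns and 20.9% (19.6–22.2%) outside genes. Exons held 4.73% and 4.56%, respectively. The intervals of the sets overlapped at promoters, in introns and outside genes.

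CEBPA peaks lay close together along the genome in both lists. The median distance from a peak to its nearest neighbour was 8.74 kb in EV and 11.7 kb in PuER, and 53.2% and 46.1% of peaks had another within 10 kb. Runs of at least 3 peaks with successive centres at most 10 kb apart, called clusters here, numbered 1940 in EV and 1200 in PuER. They held 28.1% (27.6–28.7%) of EV peaks and 20.8% (20.3–21.4%) of PuER peaks. Clusters of 5 or more peaks numbered 377 and 170. The lists differed in length. Peaks shared by both, taken alone, had a median neighbour distance of 13.2 kb in each list, an equality fixed in advance because they are the same sites.

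The share of EV peaks kept varied little with local density, and all intervals overlapped. It was 68.7% (67.8–69.5%) for EV peaks without another within 10 kb, 69.9% (68.9–70.9%) with 1, 70.1% (68.7–71.6%) with 2, 68.8% (66.5–71.0%) with 3 and 70.3% (66.7–73.7%) with 4 or more. Of the 1940 EV clusters, 1047 (54.0%) still had at least 3 PuER peaks inside, 853 had 1 or 2 and 40 had none. Of the 1200 PuER clusters, 983 (81.9%) had at least 3 EV peaks inside and 9 had none. The EV clusters with 1 or 2 PuER peaks inside fell short of the 3 peaks that define a cluster. In 591 EV clusters there were as many PuER peaks as EV peaks, or more. CEBP sites were found in 37.6% of EV peaks without a neighbour within 10 kb and in 32.0% of those with 4 or more.

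**Figure D5:**
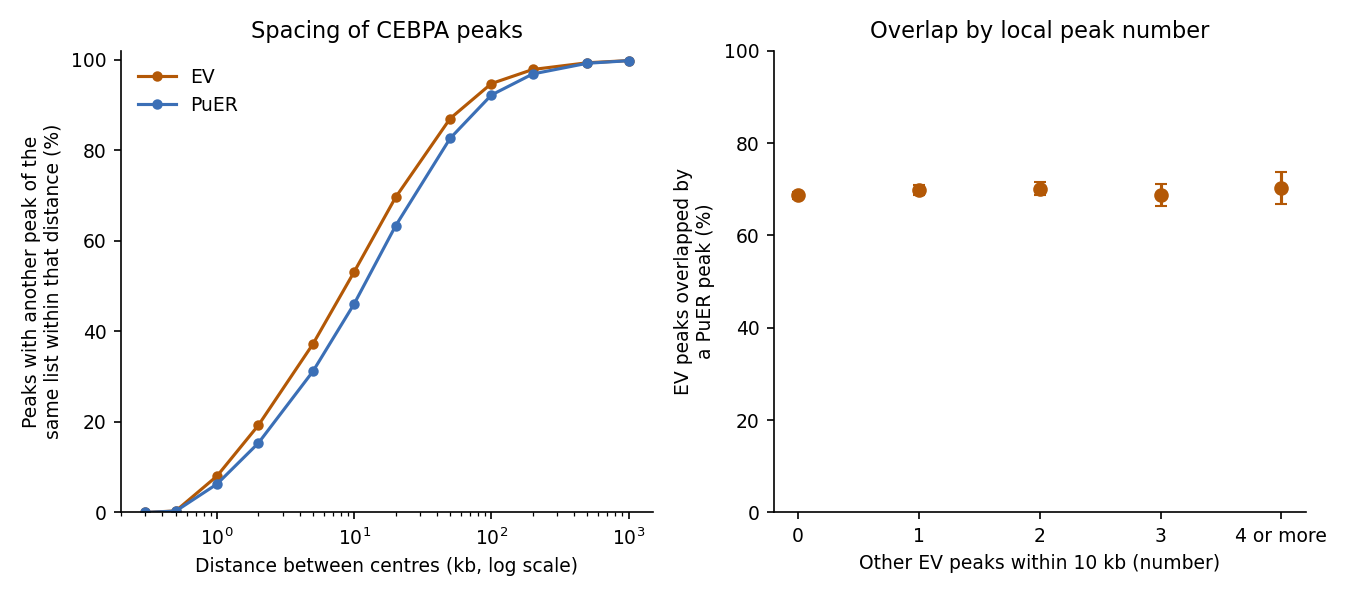
Left, share of CEBPA peaks (%) with another peak of the same list within a given distance (kb, log scale) in EV (orange) and PuER (blue). Right, share of EV peaks (%) overlapped by a PuER peak, by the number of other EV peaks within 10 kb, with exact 95% intervals. The EV curve lies above the PuER curve at 10 kb (53.2% against 46.1%), and the share kept stays between 68.7% and 70.3%.

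The densest clusters were largely held in common. The PuER cluster with the most peaks, 11 over 54.5 kb, lay in Mbnl1, a splicing regulator gene, and held 11 EV peaks as well. It was followed by 9 peaks in a region of chromosome 2 (73029932 to 73056503) without a protein-coding gene within 20 kb, 8 in Cdk6 and 8 near Dnajb12 and Ddit4, with 9, 8 and 8 EV peaks inside, and by 7 on chromosome 13 with 6. The 5 EV clusters with most peaks had 10 each. They lay in Nhsl2 (7 PuER peaks inside), in the same chromosome 2 region (9), in Zfp608 (8), in Mapkapk2 (6), which encodes a kinase of the p38 stress pathway, and near Dnajb12 and Ddit4 (8).

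Peaks of a single list seldom formed clusters of their own. Runs of at least 3 EV-only peaks numbered 141 and held 450 peaks (5.61%), and runs of PuER-only peaks numbered 16 and held 51 (2.05%). The longest EV-only runs had 5 peaks each, in Zfp608, in Acoxl, in Calcrl, in 1110059E24Rik and Abhd17b, and at chr6:99762548-99787385 outside protein-coding genes. The longest PuER-only runs had 4 peaks each, upstream of Psap (chr10:60260578-60273858), at Syk (chr13:52572427-52591566) and at chr12:98367967-98375915. The median distance from an EV-only peak to the nearest shared peak was 14.9 kb and from a PuER-only peak 18.7 kb, and 41.2% (40.1–42.3%) and 36.1% (34.2–38.0%) lay within 10 kb of one.

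Every nuclear chromosome with peaks had fewer CEBPA peaks in PuER. The share of EV peaks kept ranged from 74.0% (71.6–76.4%) of 1324 on chromosome 3 to 65.3% (61.1–69.3%) of 539 on chromosome X, and the ratio of PuER to EV peaks from 0.870 to 0.737 on the same chromosomes. Chromosome X also had the lowest density, with 3.15 peaks per Mb in EV and 2.32 in PuER, while chromosome 19 had the highest, with 14.8 and 11.5. The mitochondrial genome had 2 EV peaks and no PuER peak. Of 2157 windows of 1 Mb with a peak, 1565 had fewer in PuER, 253 had more and 339 had the same number. The largest drop, from 36 to 19, was on chromosome 2 from 128 to 129 Mb, which holds Bcl2l11, a pro-apoptotic BCL2 family gene, Mertk, a receptor for apoptotic cells, and Acoxl. A drop of the same size, from 33 to 16, was on chromosome 8 from 77 to 78 Mb, at Nr3c2 and Arhgap10.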

How the data were processed

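The authors mapped ChIP-Seq reads to mm10 (GRCm38) with Bowtie2 2.0.6, called peaks with MACS2 2.0.10 (versions from the submitters' processing notes) and deposited peak coordinates for each library. The deposited files held no score, p-value or count, and every interval was 400 bp wide. The calling threshold is not given in the sources used here, and depth is unknown. Members, gene lists and tests were chosen with earlier results of these data known. The CEBPA lists and, for overlaps, the PU.1 lists of both lines were used.

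Peaks that overlapped by at least 1 bp were treated as shared. Genes were the 21951 protein-coding genes of GENCODE M21, and a peak was assigned to every gene whose body lay within 20 kb of its centre. The 12 genes with the largest gains and losses, the 8 with most peaks, up to 10 without a peak in one of the lists, the list members that changed by at least 2 or had most peaks, 4 fixed genes and the 5 densest clusters were to be named, with ties broken by the number of changed peaks, gene length and symbol. Some list members are not reported here. Sites were sought in the RefSeq GRCm38.p6 sequence. With 1 library per antibody and line no test was run, and intervals are exact 95% binomial intervals. Assignment and overlap were tested on simulated data, and the peak numbers of 200 of 200 genes were recovered. The analysis used Python 3.11.15, numpy 2.4.6, scipy 1.17.1 and matplotlib 3.10.9. Alternatives were other distances, thresholds, overlaps, cluster definitions and motif windows.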

Additional observations from a re-analysis of the deposited data

How the results depend on the processing

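No paired analysis was possible because there was 1 library per antibody and line, and no library could be left out. The number of gaining and losing genes was 77 and 754 when only gene bodies were counted, 108 and 1033 within 5 kb, 362 and 3531 within 50 kb, 116 and 1057 when each peak went to its nearest gene, and 29 and 574 when 3 peaks were required. Losing genes outnumbered gaining genes in each of these. Multiplying EV numbers by the ratio of the list sizes gave 289 and 249 and thereby ended the excess of losses. Genes with at least 2 PuER-only or EV-only peaks numbered 363 and 2080, or 461 and 2197 when centres had to lie within 100 bp to be shared. Leaving out genes over 2 Mb, an alternative chosen after the data were seen, left 184 and 1829. Counting only gene bodies gave 6683 genes with a peak in EV and 5787 in PuER. Peaks per gene with a peak in EV and PuER were 2.26 and 2.04 in gene bodies, 2.25 and 2.01 within 5 kb, 3.69 and 3.10 within 50 kb, and 2.37 and 2.10 with the nearest gene only.

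The share of peaks in clusters in EV and PuER was 13.3% and 8.95% with steps of 5 kb, 55.2% and 46.4% with 25 kb, 8.45% and 4.62% for runs of at least 5, and 24.6% and 18.2% when peaks closer than 1 kb were counted once. EV stayed above PuER in each, but the EV list was the longer one throughout, and a longer list has closer peaks. Whether the difference remains at equal list length was not tested. Median neighbour distances were 10.2 and 13.2 kb with such peaks counted once. For shared peaks alone they were 13.2 kb in both lists. Shared peaks are the same sites in both lists, so that equality was fixed in advance and does not bear on the difference.

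CEBP site shares in PuER-only peaks at gaining genes were 36.1% in the central 200 bp, 44.1% in the whole peak and 50.6% for TTNCNNAA. The shares for shared peaks at gaining genes were 46.8%, 50.8% and 61.7%, for EV-only peaks at losing genes 36.2%, 42.6% and 49.9%, and for shared peaks at losing genes 47.9%, 53.2% and 59.3%. Overlap with PU.1 when centres had to lie within 100 bp was 36.4%, 18.3%, 3.51% and 14.2% in the same 4 classes. With a threshold of 3 peaks it was 54.7%, 37.9% and 21.8% at PuER-only and shared peaks of gaining genes and shared peaks of losing genes. Chromosomes 3 and X stayed the highest and lowest under both other overlap rules. Of 144 values for the 24 genes with the largest changes under 6 alternatives, added after the data were seen, none changed direction and 3 fell to 0, all at Siglece. These genes were chosen for large changes, and multiplying EV numbers by 0.788 cannot turn a gain into a loss. Several gains became smaller. In gene bodies only, the net change was 1 at Psap, Ctsc, Nod2 and Zfp819. With the nearest gene only, it was 4 at Tg, below the 5 at Psap and at Syk. Peak lists without heights or depth limit every count to what passed the calling threshold, and a weak peak on either side of it cannot be told from a gained or lost one.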
